A study of Glycine max with 8 samples.

Results

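Chromosomes 8 and 18 of soybean (Glycine max) held 1719 of the 15872 places at which both biological replicates of a chromatin immunoprecipitation experiment had a peak. Chromosome 8 held 976 of these shared regions and chromosome 18 held 743. A shared region joined peaks of the 2 replicate lists that overlapped by at least 1 bp on either chromosome; the other 18 chromosomes held 14073 regions and scaffolds held 80. The immunoprecipitated protein is the product of GLYMA.08G357600, and the identifier places its gene on chromosome 8. The position of that gene within the chromosome is not reported, because no source used here names the build of these coordinates.

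ChIP-seq locates a DNA-associated protein by crosslinking chromatin, shearing it, collecting the fragments that carry the protein with an antibody and sequencing them. The 4 ChIP libraries used an antibody raised against a peptide of the GLYMA.08G357600 protein, and the 4 input libraries were made from the same kind of chromatin without an antibody step. All 8 came from formaldehyde-fixed, mid-maturation embryos of the cultivar Williams 82 grown in a greenhouse, with no other treatment named, and each group had 2 biological replicates sequenced on 2 lanes each. The lanes of a replicate share 1 peak list, so each chromosome has 1 value per list and no spread within a replicate; no library from tissue lacking the protein is among the samples. At mid-maturation the soybean embryo lays down storage protein and oil, mainly in its cotyledons. Soybean chromosomes carry most of their genes toward both ends, and a broad stretch around the centromere is rich in repeats and poor in genes. That is background on the species; gene positions of the files' build were not at hand, so the layout of regions was not compared with that of genes. For the same reason no base sequence and no gene name is given for a region.

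Replicate 1 had 1291 peaks on chromosome 8 and 965 on chromosome 18, of 21196 in its list. Replicate 2 had 1137 and 876 there, of 18385. On chromosome 8, the share of peaks with a partner in the other list was 76.0% in replicate 1 (Wilson 95% interval 73.6% to 78.2%) and 86.6% in replicate 2 (84.5% to 88.5%). On chromosome 18 the shares were 77.2% (74.5% to 79.7%) and 84.9% (82.4% to 87.2%). Over each whole list they were 75.2% and 87.0%, each inside the intervals of both chromosomes. Intervals here and below cover counting error only. The member that barely met the overlap rule on chromosome 8 joined peaks sharing 9 bp (17783684 to 17783906 and 17783898 to 17784241, fold enrichments of 4.28 and 4.24). The nearest pair there that did not touch lay 149 bp apart, with folds of 4.78 and 5.30. On chromosome 18 the smallest overlap was 8 bp (folds of 5.71 and 4.35), and the nearest pair that did not touch lay 124 bp apart (3.85 and 11.98). The replicate 2 peak of that pair belonged to the member from 1103777 to 1104330, joined with another replicate 1 peak.

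Chromosome 8 was dense in shared regions and chromosome 18 was the sparsest of the 20. Chromosome 8 carried 20.5 regions per Mb and chromosome 18 carried 12.8, where the other 18 chromosomes had 16.9 ± 3.56 per Mb (SD, n = 18 chromosomes) and ranged from 13 on chromosome 1 to 25.4 on chromosome 13. Chromosome length here means the position of the last peak end found in the lists, 47.7 Mb for chromosome 8 and 58.0 Mb for chromosome 18, the longest. The density of chromosome 8 was 1.60 times that of chromosome 18 (exact conditional 95% interval 1.45 to 1.76). It was 1.23 times that of the other 18 chromosomes together (1.15 to 1.31), and chromosome 18 stood at 0.767 of them (0.712 to 0.826). These intervals take regions as independent; neighbouring regions may not be, so the spread over chromosomes is the wider measure. By that measure both lay about 1 SD from the mean, above it for chromosome 8 and below it for chromosome 18.

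Each list alone gave the same order. Chromosome 8 had 27.1 replicate 1 peaks per Mb and chromosome 18 had 16.6, a ratio of 1.63 (1.496 to 1.77). In replicate 2 the densities were 23.9 and 15.1 per Mb, a ratio of 1.58 (1.44 to 1.73). Chromosome 18 was last of the 20 in replicate 1 and the 19th in replicate 2. In bases, shared regions covered 482 kb of chromosome 8 and 360 kb of chromosome 18, and the covered length per Mb stood in a ratio of 1.63.

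With both ends of a chromosome counted together, the densities of the chromosomes were close near the ends and apart in the interiors, a split made after the values were seen. Within 5 Mb of either end, chromosome 8 held 328 regions (32.8 per Mb) and chromosome 18 held 337 (33.7 per Mb), a ratio of 0.973 (0.833 to 1.14); the other 18 chromosomes had 32.5 ± 6.18 per Mb (SD, n = 18 chromosomes) there. Within 10 Mb of either end the ratio was 1.07 (0.955 to 1.21), but the ends differed in opposite directions: the first 10 Mb held 362 regions on chromosome 8 and 286 on chromosome 18, and the last 10 Mb held 226 and 261. More than 10 Mb from both ends, chromosome 8 held 388 regions in 27.7 Mb and chromosome 18 held 196 in 38.0 Mb. That is 14.0 against 5.16 per Mb, a ratio of 2.72 (2.28 to 3.24), where the other 18 chromosomes had 8.28 ± 5.57 per Mb (SD, n = 18 chromosomes). In this interior density chromosome 8 was exceeded by chromosome 13 only, at 28.7 per Mb, and chromosome 18 was the 16th of 20.

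Chromosome 8 held 703 regions, or 72.0%, before its midpoint and 273 after it, and chromosome 18 held 386 (52.0%) and 357. On the other 18 chromosomes the share before the midpoint was 48.8% ± 19.4 (SD, n = 18 chromosomes), from 19.0% to 80.4%, so uneven sides were common and both shares lay within that range. When each chromosome was cut into 10 equal segments, chromosome 8 had 39.0, 34.4, 34.2 and 27.7 regions per Mb in segments 1 to 4. It then dropped to 12.2 in segment 5 and to 2.098 and 1.47 in segments 6 and 7. Density came back to 6.71, 19.1 and 27.9 in segments 8 to 10. In segment 4 the other 18 chromosomes averaged 8.39 ± 7.51 per Mb (SD, n = 18 chromosomes), and the highest of them had 21.4.

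Chromosome 18 thinned out faster from its first end. Segment 1 had 36.6 regions per Mb, segment 2 had 14.3, and segments 3 and 4 had 7.93 and 6.04. Segments 5 to 7 held 10, 10 and 12 regions, under 2.1 per Mb each. From there the last 3 segments rose to 9.49, 19.3 and 29.0 per Mb. The chromosomes were furthest apart in segment 3, where chromosome 8 had 34.2 per Mb and chromosome 18 had 7.93, and closest in segment 9.

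**Figure D1:**
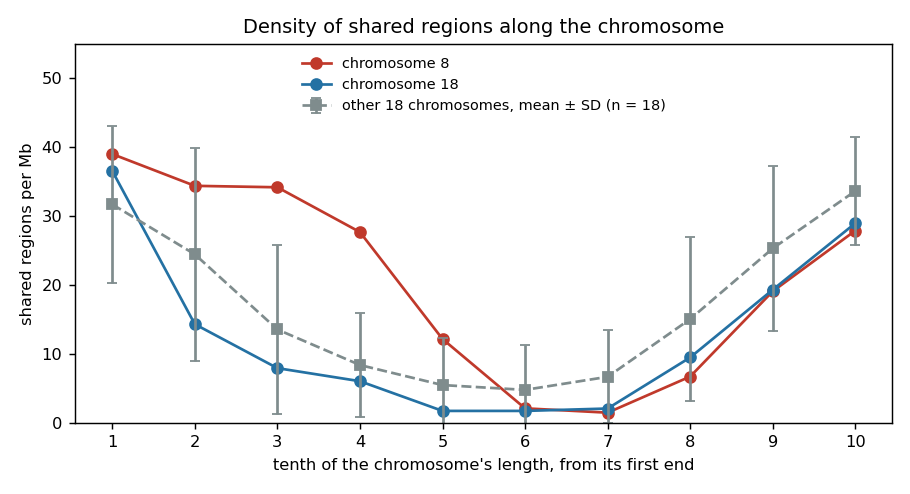
Shared regions per Mb (vertical axis) in 10 equal segments of each chromosome (horizontal axis), for chromosome 8, chromosome 18 and the mean ± SD of the other 18 chromosomes. Chromosome 8 stayed at 27.7 per Mb or more through segment 4, where chromosome 18 had 6.04; both were near 2 per Mb or lower in segments 6 and 7.

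In the outer 20% at each end lay 574 of the chromosome 8 regions, or 58.8% (Wilson 95% interval 55.7% to 61.9%), and 575 of the chromosome 18 regions, or 77.4% (74.2% to 80.3%). The share over all chromosomal regions was 68.2%. Chromosome 8 was thus the 19th of the 20 in this share, above chromosome 13 (33.4%), and chromosome 18 was the 4th. The counts themselves differed by 1, so the lower share of chromosome 8 came with its 402 regions further in, against 168 on chromosome 18.

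**Figure D2:**
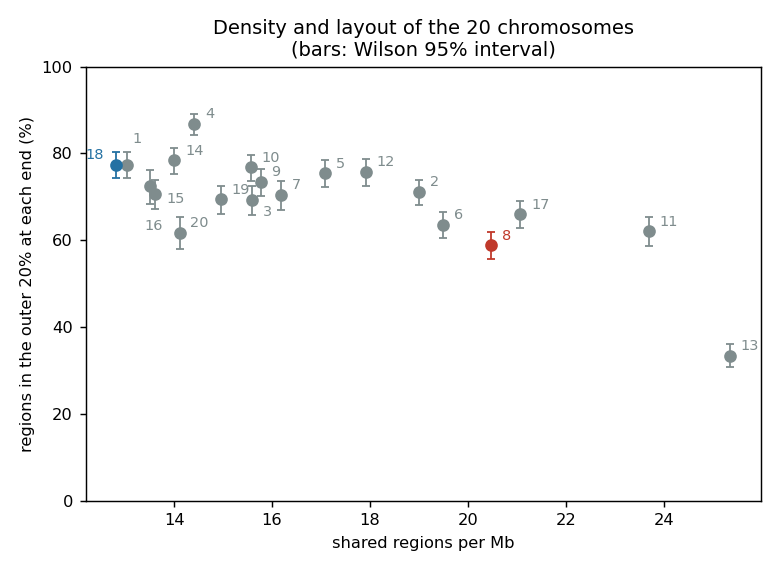
Each point is a chromosome, with its shared regions per Mb (horizontal axis) and the percentage of its regions in the outer 20% at each end (vertical axis, bars are Wilson 95% intervals). Chromosome 8 sits among the dense chromosomes at 58.8% and chromosome 18 is the sparsest, at 77.4%.

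Counted from the first end in Mb, the curves of the chromosomes ran together and then parted. The first 5 Mb held 190 regions on chromosome 8 and 188 on chromosome 18. The next 5 Mb held 172 and 98, and the stretch from 10 to 15 Mb held 176 and 32. From the last end inward, by contrast, chromosome 8 had the lower counts, with 138, 88 and 30 regions in successive 5 Mb windows against 149, 112 and 65 on chromosome 18. Chromosome 8 had 2.72 times the density of chromosome 18 from 5 to 20 Mb off the first end (exact conditional 95% interval 2.28 to 3.27). Against the other 18 chromosomes together it had 2.26 times the density (2.05 to 2.49), but these varied widely. They held 112 ± 69.8 regions from 5 to 10 Mb and 58.2 ± 52.9 from 10 to 15 Mb (SD, n = 18 chromosomes). Chromosome 8 was the 5th and the 2nd of 20 in those windows, and chromosome 6 held more in both (229 and 185).

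**Figure D3:**
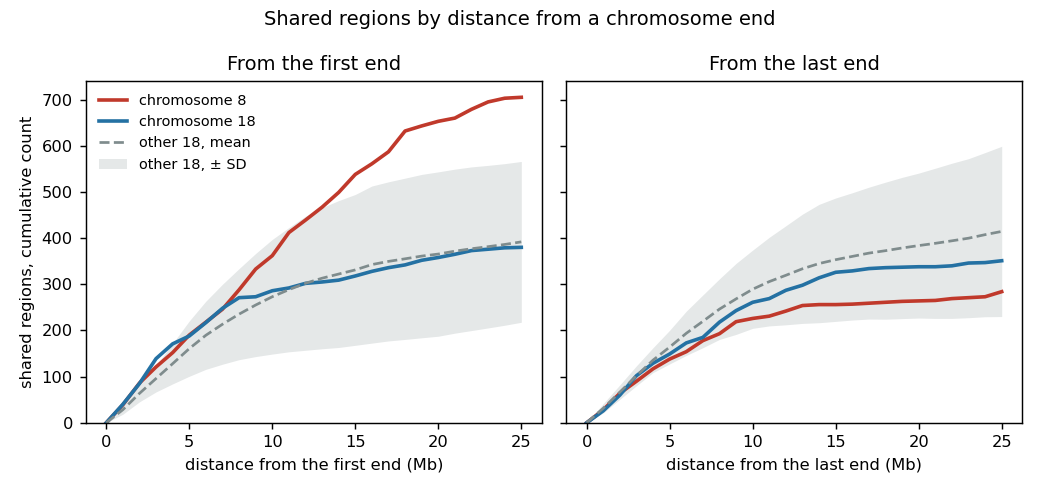
Cumulative number of shared regions (vertical axis) by distance in Mb from the first end (left) and the last end (right) for chromosome 8, chromosome 18 and the mean ± SD of the other 18. At 5 Mb from the first end chromosomes 8 and 18 had 190 and 188 regions, and at 15 Mb they had 538 and 318.

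In bins of 1 Mb, chromosome 8 reached at least 20 regions in 26 of 48 bins and chromosome 18 in 15 of 58, against 37.6% of the 956 bins of all chromosomes. On chromosome 8 such bins followed each other without a break from 1 to 18000000, 18 bins with 23 to 50 regions each. That stretch held 632 regions, 64.8% of the chromosome, and was exceeded in length by 1 on chromosome 13 (26 bins). The longest such stretch on chromosome 18 had 6 bins, from 52000001 to its end, with 173 regions. The densest bins of chromosome 8 began at 10000001 (50 regions), 1000001 (47), and 8000001 and 17000001 (45 each). Those of chromosome 18 began at 2000001 (54), 1000001 (45) and 1 (40). Bins with at most 4 regions numbered 11 on chromosome 8 and 22 on chromosome 18, against 32.5% of all bins. The longest stretch of them ran over 10 bins from 24000001 on chromosome 8, with 17 regions in all, and over 13 bins from 22000001 on chromosome 18, with 24.

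Gaps were shorter and fewer on chromosome 8. Its longest stretch without a peak in either list ran from 28756551 to 30358699 (1.60 Mb), followed by 31125893 to 32341707 (1.22 Mb) and 33285244 to 34411891 (1.13 Mb). On chromosome 18 the longest ran from 30509694 to 33171140 (2.66 Mb), the third longest of the 20 chromosomes, then from 36231456 to 38179759 (1.95 Mb) and from 25908511 to 27801454 (1.89 Mb). Stretches of at least 1 Mb numbered 3 on chromosome 8, 3.94 Mb in all, and 5 on chromosome 18, 8.59 Mb in all. The other 18 chromosomes had 3.61 ± 1.54 of them (SD, n = 18 chromosomes), so neither count stood outside their spread. On both chromosomes these stretches began between 41.9% and 69.8% of the way along. Which sequence there could be aligned is not known, so a stretch without peaks is no measurement of absence.

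The sparse middles held few strong members. A fold of at least 20 in both lists was met by 2 of 17 regions on chromosome 8 and 1 of 24 on chromosome 18. Over all shared regions the share was 7.14%. The 17 regions from 24000001 to 34000000 on chromosome 8 included 26627809 to 26628548, with folds of 29.6 in replicate 1 and 26.7 in replicate 2, and 30771177 to 30771912, with folds of 22.1 and 27.4. On chromosome 18 the region from 24272920 to 24273613 had folds of 26.3 and 21.8 and lay 619 kb from its nearest neighbour. The most isolated member of chromosome 8, from 32341708 to 32342095, lay 1216 kb from its nearest neighbour, summit to summit, and was weak, with folds of 5.43 and 4.05. These regions were chosen for their position and values.

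The median distance between neighbouring summits was 21.6 kb on chromosome 8 and 25.3 kb on chromosome 18, against 21.8 ± 3.19 kb on the other 18 chromosomes (SD, n = 18 chromosomes). Upper quartiles were 48.4 kb and 65.9 kb. The chromosomes differed in their long distances: 84 of 975 neighbouring pairs on chromosome 8, or 8.62% (Wilson 95% interval 7.01% to 10.5%), were over 100 kb apart. On chromosome 18 it was 126 of 742, or 17.0% (14.5% to 19.9%), and over all chromosomes 11.8%. Close pairs had overlapping intervals: 8.72% of pairs on chromosome 8 (7.11% to 10.7%) and 9.43% on chromosome 18 (7.53% to 11.8%) lay within 2 kb, against 9.22% over all chromosomes. Within the first 5 Mb, where the counts were alike, the median distance was 18.3 kb on chromosome 8 and 15.2 kb on chromosome 18.

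**Figure D4:**
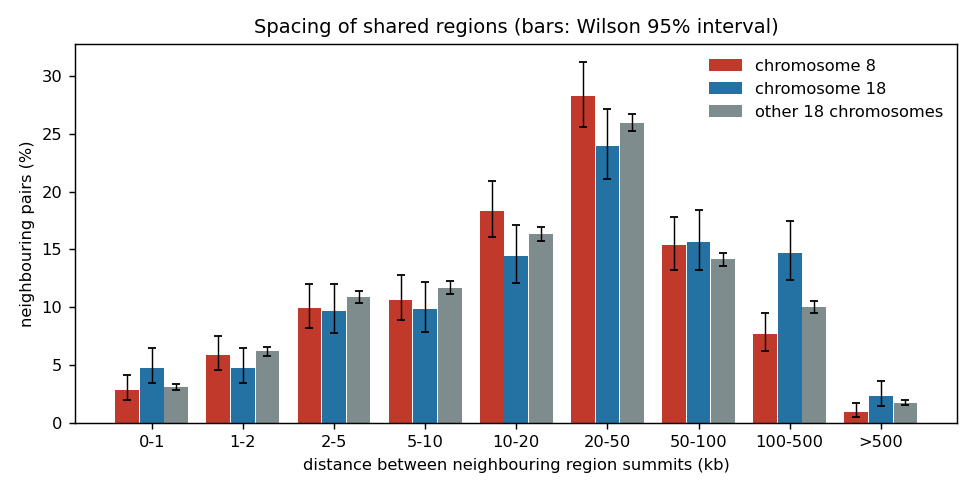
Percentage of neighbouring pairs of shared regions (vertical axis) by the distance between their summits in kb (horizontal axis) for chromosome 8, chromosome 18 and the other 18 chromosomes, with Wilson 95% intervals. Pairs 100 to 500 kb apart made up 7.69% on chromosome 8 and 14.7% on chromosome 18.

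Runs of at least 4 regions, each summit within 5 kb of the next, numbered 8 on chromosome 8 and 7 on chromosome 18, where the other 18 chromosomes had 6.94 ± 4.53 (SD, n = 18 chromosomes). With replicate 2 left out, the peaks of replicate 1 alone gave 21 and 15 runs, and shared regions made only of peaks with −log10 q of at least 10 gave 3 and 1. All 8 runs of chromosome 8 held 4 regions. The strongest of them ran from 45776359 to 45787754, with folds of 6.93 to 36.8 in replicate 1 and 4.54 to 44.2 in replicate 2. On chromosome 18 a run of 6 lay from 2729497 to 2737329 and a run of 5 from 50285981 to 50293398.

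The run of 6 mixed strong and ordinary regions within 7.83 kb. Its first region (2729497 to 2730615) had folds of 40.8 in replicate 1 and 64.4 in replicate 2. The next ones along the chromosome had 11.4 and 13.1 (2730660 to 2731079), then 7.54 and 6.41 (2731266 to 2731620). Whether such close neighbours are separate sites was not tested. The fourth (2732704 to 2734572) was the strongest and widest of chromosome 18, 1869 bp with folds of 56.7 and 65.7, and was followed by regions with 10.9 and 9.81 and with 38.9 and 25.02. The 1 Mb bin that holds this run, from 2000001, had 54 regions. Of these, 9 had a fold of at least 20 in both lists, against 7.14% of all shared regions. The bin is named here because it holds the run, whose strong regions are among the 9.

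Median enrichment on both chromosomes lay within the range of the others. The fold is the authors' peak caller's ratio of overlapping fragments to the local background at a peak's summit, with 1 added to both terms. Its median over shared regions in replicate 1 was 6.93 on chromosome 8 (quartiles 5.10 and 10.8) and 6.73 on chromosome 18 (5.08 and 11.3). In replicate 2 it was 7.36 (5.37 and 11.4) and 7.10 (5.40 and 11.9). The medians of the other 18 chromosomes ran from 6.73 to 7.34 in replicate 1 and from 6.94 to 7.74 in replicate 2. Median summit pileups, the number of overlapping fragments, were 39 and 30 on chromosome 8 and 38 and 30 on chromosome 18.

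Strongly enriched regions, with a fold of 20 or more in both lists, numbered 77 on chromosome 8, or 7.89% (Wilson 95% interval 6.36% to 9.75%), and 58 on chromosome 18, or 7.81% (6.09% to 9.96%). Over all shared regions it was 7.14%, so these shares were near the background. At a limit of 10 the counts were 244 regions of chromosome 8 and 190 of chromosome 18 (25.6%), against 24.4% of all. Per Mb, regions of the higher class numbered 1.62 on chromosome 8 and 1.00 on chromosome 18, a ratio of 1.61 (exact conditional 95% interval 1.13 to 2.31), close to the ratio of all regions. Counted by a pileup of at least 20 times the genome-wide background instead, the shares were 16.4% and 17.6%. No share over all regions is given for that limit, so these values have no background beside them. Of the strong regions, 49 on each chromosome lay in the outer 20% at each end; further in lay 28 on chromosome 8 (6.97% of regions there) and 9 on chromosome 18 (5.36%).

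The member of chromosome 8 with the highest mean rank of fold over the lists lay from 16096786 to 16097626, in the long dense stretch, with folds of 48.5 in replicate 1 and 59.3 in replicate 2. It was the 55th of all shared regions. After it came 3807917 to 3808872 (43.0 and 71.0), 12443727 to 12444727 (49.0 and 52.7) and 18183460 to 18184325 (49.96 and 47.0). The next were 40593434 to 40594159 (45.6 and 45.9), 4696928 to 4697939 (43.7 and 46.6), 426213 to 427586 (39.5 and 50.05) and 6671067 to 6672179 (39.3 and 45.1). Of these 8, 7 lay before the midpoint, where 72.0% of all chromosome 8 regions lay, and 1 beyond the sparse middle. The tallest summit of chromosome 8 was another region, from 525315 to 526403, with 357 overlapping fragments in replicate 1 and 323 in replicate 2. Its folds were 32.6 in replicate 1, below those of the 8, and 58.8 in replicate 2, above 6 of them, over local backgrounds of 10.0 and 4.51 fragments.

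Chromosome 18 led with the fourth region of its run of 6, the 16th of all shared regions. Next stood 303961 to 305076 (folds of 50.8 in replicate 1 and 55.8 in replicate 2), 53055473 to 53056344 (45.8 and 61.3) and 18513771 to 18514446 (48.1 and 53.7). The first region of the run came after these. The remaining ones were 52462830 to 52463804 (47.5 and 49.2), 2683007 to 2684354 (45.8 and 48.1) and 6567802 to 6569214 (44.0 and 49.2). Of the 8, 7 lay in the outer 20% at either end, where 77.4% of all chromosome 18 regions lay. The region at 18513771 lay 31.9% of the way along. Among the 100 regions with the highest rank in the genome were 4 of chromosome 8 and 6 of chromosome 18. These chromosomes held 6.18% and 4.70% of all chromosomal regions. The other 18 chromosomes had 4.89 ± 2.19 of the 100 each (SD, n = 18 chromosomes), from 0 to 9, so both counts lay within their range.

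**Figure D5:**
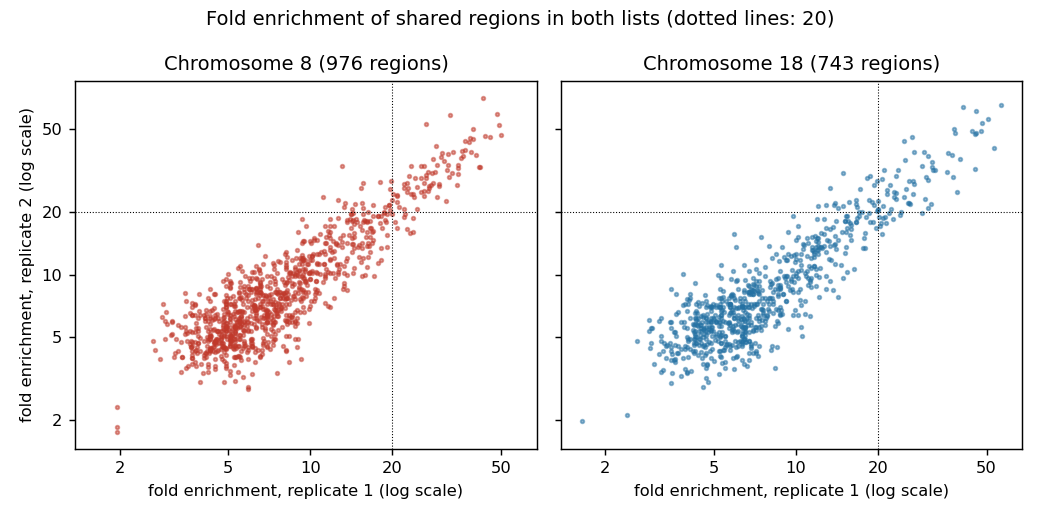
Fold enrichment of each shared region in replicate 1 (horizontal axis) and replicate 2 (vertical axis), both on log scales, for chromosome 8 (left) and chromosome 18 (right); dotted lines mark a fold of 20. The 77 and 58 regions above both lines form the upper right of each cloud, and 3 and 2 regions with high background sit apart at the lower left.

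The lists ordered the members alike. The Spearman correlation of fold between the lists was 0.822 across the regions of chromosome 8 and 0.813 across those of chromosome 18, against 0.811 across all; regions share libraries and are not independent replicates. Summits of the lists lay a median of 29 bp apart on chromosome 8 and 30 bp on chromosome 18. Pileups of replicate 1 were a median of 1.26 and 1.25 times those of replicate 2 among regions with summits at most 100 bp apart. Tested against the median ratio of all 14708 such regions (1.25), 0 of 1581 on the 2 chromosomes differed by a two-sided exact binomial test with Benjamini-Hochberg adjustment over all regions, against a background of 0.00% called. The lowest adjusted p among them was 1 (exact binomial test). Without adjustment 53 of them, or 3.35%, had a p under 0.05, against 3.01% of all. The pair of pileups furthest apart by that test, 74 in replicate 1 and 97 in replicate 2, belonged to the region from 19192182 to 19193040 on chromosome 8 (unadjusted exact binomial p = 0.00153, adjusted p = 1). A p that misses the threshold does not show that the pileups were equal. Only regions called in both lists were tested. The 530 replicate 1 and 284 replicate 2 peaks without a partner on these chromosomes did not enter. The test thus describes matched peaks and not the agreement of the whole lists.

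Peaks without a partner were weaker on both chromosomes. On chromosome 8, 310 replicate 1 peaks and 152 replicate 2 peaks stood alone, with median folds of 4.24 and 4.76. On chromosome 18 they numbered 220 and 132, with median folds of 4.28 and 4.73. The strongest of replicate 1 on chromosome 8 lay from 2698709 to 2699062 (fold 9.05). The strongest of them on chromosome 18 were 57022378 to 57022747 in replicate 1 (fold 7.95) and 49751641 to 49751994 in replicate 2 (8.01). On chromosome 8 the strongest of replicate 2 lay from 34973825 to 34974171 (8.64), next to the sparse middle and 110 kb from the nearest replicate 1 peak. The share of unmatched peaks in the outer 20% was 66.1% in replicate 1 and 57.9% in replicate 2 on chromosome 8, and 80.9% and 69.7% on chromosome 18, the same order between the chromosomes as for shared regions.

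Widths followed the rest of the genome. The median was 448 bp on chromosome 8 and 439 bp on chromosome 18, and the other 18 chromosomes ran from 436 to 467.5 bp. Over 1000 bp were 27 regions (2.77%) and 13 regions (1.75%), against 2.41% of all regions. The widest of chromosome 8 ran from 2629824 to 2631361 (1538 bp, folds of 29.7 and 27.2). The region nearest the first end lay from 54395 to 55433 on chromosome 8 (folds of 8.92 and 13.1) and from 51909 to 52418 on chromosome 18 (6.73 and 8.26).

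High local background was found at 5 members, 0.291%, against 0.208% of all shared regions, counting backgrounds over 5 times the level each list has genome-wide (3.91 fragments in replicate 1 and 2.74 in replicate 2). Chromosome 8 held a pair near its last end, 47500053 to 47500387 with backgrounds of 77.6 and 54.6 fragments and 47501182 to 47501423 with 42.9 and 33.7, and another region from 43113027 to 43113606 with 61.2 and 58.7. Chromosome 18 held a pair in its sparse middle, 33817917 to 33818423 with 156 and 110 and 33818931 to 33819196 with 60.7 and 45.9. Their folds, from 1.64 to 2.40, were the lowest of both chromosomes, although their pileups reached 257 fragments in replicate 1 and 217 in replicate 2.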

How the data were processed

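Each ChIP biological replicate has 1 deposited narrowPeak file, with the lanes of a replicate joined, per the labels. Per the submitters' processing notes, Bowtie 0.12.7 did the alignment and MACS2 the peak calling; no source used here names the settings, the MACS2 version or the build. Per peak, the authors deposited a fold enrichment, −log10 p and −log10 q values, and the summit's offset from the peak start. A score was also deposited and was not used. The fold is a ratio to the local background at the summit, with 1 added to both terms.

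Peaks were joined into regions as described, positions counted from 1. The peak with the highest fold gave a region's values, the midpoint its place, and the mean of the summits its spacing. Pileup and background were solved from each peak's fold and its Poisson p; 100% of pileups came out whole within 0.01 in both lists. Total reads per library are not used here; the genome-wide backgrounds over the fragment lengths (223 and 221 bp) put the ChIP depth of replicate 1 at 1.41 times that of replicate 2. Pileup recovery, the joining of peaks and the pileup test were run on simulated data. The power of the pileup test to call a difference is not reported here. Python 3.11.15, numpy 2.4.6, scipy 1.17.1, pandas 2.3.3 and matplotlib 3.10.9 were used. The labels call the replicates biological; p-values compare 1 list with 1 list and cover counting error only.

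The chromosomes, members and measures were chosen with earlier results of these data known. Regions named are, per chromosome, the 8 with the highest mean percentile rank of fold, the 3 longest gaps, the densest bins, the longest runs, the widest, first and high-background regions and the strongest unmatched peaks; any other was chosen after its values were seen.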

Additional observations from a re-analysis of the deposited data

How the results depend on the processing

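Of 76 values recomputed under other settings, 56 stayed within their interval or within 1.5 times the count and 20 moved; no density ratio reversed. Chromosome 8 over chromosome 18 in density was 1.58 to 1.63 with a replicate left out. Values below are for chromosome 8, then chromosome 18. Only peaks with −log10 q of at least 10 gave 663 and 499 regions, runs of 3 and 1, fold-20 shares of 11.6% and 11.6%, and 5.74% of pairs within 2 kb on chromosome 8, with fewer peaks entering. Outer shares were 32.7% and 51.1% for the outer 10% and 78.8% and 91.0% for the outer 30%. Runs numbered 1 and 2 within 2 kb and 23 and 16 within 10 kb. These follow from the limits set. A pileup of at least 20 times the genome-wide background, in place of the fold, was met by 16.4% and 17.6%. That limit is easier to meet: the genome-wide background is a list's lowest local background, and the fold adds 1 to both terms. No share over all regions is given for it. With 1 replicate left out, every peak of the list kept counted as a region, matched or not. The fold limit then held in that list only, so these values are of another set and measure. Outer shares were 58.8% to 60.4% and 76.3% to 78.2%, and pairs within 2 kb 10.8% to 11.9% and 10.6% to 12.3%. There were 11 to 21 and 10 to 15 runs, and fold-20 shares were 6.58% to 8.62% and 7.25% to 9.47%. Scaling pileups by the genome-wide backgrounds called 0 of 1581 members. Of them 136 had an unadjusted binomial p under 0.05 (lowest adjusted binomial p = 0.0539). Taking summits at any distance called 0 of 1719 members (57 unadjusted). Shares over all regions are not given for these settings, so the unadjusted counts describe the members only. No paired analysis was possible because each peak list is of a ChIP replicate and no peak list of an input was at hand. The settings of the peak calling are not named, so whether the input served as its control is not known here. The lowest summits called held 14 fragments in replicate 1 and 12 in replicate 2; the effect of depth on weaker regions was not tested.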
